A study of Mus musculus with 12 samples.

Results

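The genes described here are the potassium channel genes of cultured mouse aortic smooth muscle cells, taken as every row of the deposited expression table whose symbol begins with Kcn followed by letters and an optional number, without the antisense transcript Kcnq1ot1. There were 71 such rows among 29462: 26 pore subunits of voltage-gated channels, 10 auxiliary subunits of those channels, 12 genes of calcium- and sodium-activated channels, 11 inward rectifiers, 9 tandem-pore (K2P) channels and 3 other rows. Of these, 7 reached 1 FPKM in at least 6 of the 12 libraries, as did 40.2% of all rows. FPKM is fragments scaled by gene length and sequencing depth, so levels can be compared between genes.

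The 12 libraries were made from primary aortic smooth muscle cells of global CSE knockout mice (KO, 6 libraries) and of C57BL/6J mice (WT, 6 libraries). CSE is cystathionine gamma-lyase, an enzyme that makes hydrogen sulfide and is encoded by Cth. All cells had received angiotensin II at 1 uM for 24 h, so no library shows a basal state, and the comparison asks how the transcriptome of stimulated cells differed with loss of CSE. The knockout was in the whole animal, and nothing in the labels tells whether the 6 libraries of a genotype are separate animals, separate cultures or repeat libraries of 1 culture. The p-values below therefore rest on library-to-library spread, which may be technical.

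Potassium channels let potassium ions leave the cell and so hold the membrane potential of arterial smooth muscle negative, which keeps voltage-gated calcium channels closed and the muscle relaxed. In arterial muscle the background names are the large-conductance calcium-activated channel (Kcnma1 with Kcnmb1), voltage-gated channels, the inward rectifier Kcnj2 and the ATP-sensitive channel (Kcnj8 with the sulfonylurea receptor Abcc9). Proliferating smooth muscle cells are known for the intermediate-conductance calcium-activated channel Kcnn4. Many pore subunits work only with partners: silent voltage-gated subunits form no channel alone, and beta, Kcne and Kcnip subunits change the gating or surface level of the pores they bind.

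The summed FPKM of the libraries ran from 255538 to 281432, and depth in reads is unknown. Cth itself was near 0 in all libraries, with 0 to 0.02 FPKM in KO and 0 to 0.08 FPKM in WT, so it does not check the labels (two-sided exact permutation p = 0.143). Of the defining smooth muscle markers, Acta2 was at 75.28 to 145.52 FPKM in KO and 111 to 140.4 FPKM in WT, while Myh11 and Synpo2 were below 0.05 FPKM in every library. In KO replicates 1 to 4 Acta2 was at 75.28 to 85.09 FPKM, below all WT libraries. In KO replicates 5 and 6 it was at 141.13 and 145.52 FPKM, above them. Smtn was at 8.81 to 9.64 FPKM in KO replicates 1 to 4, below the WT range of 11.77 to 13.89 FPKM. It was at 12.26 and 20.53 FPKM in KO replicates 5 and 6. Lmod1, Mylk and Cnn1 were low but higher in KO with no overlap, at 0.627 FPKM in KO and 0.0333 FPKM in WT, 0.22 FPKM in KO and 0.015 FPKM in WT, and 0.135 FPKM in KO and 0.00833 FPKM in WT (means), and Tagln averaged 0.695 FPKM in KO and 0.153 FPKM in WT. Markers of other cell types also moved with genotype: the summed level of 9 epithelial or mesothelial markers was 44.55 to 68.05 FPKM in KO and 146.04 to 154.78 FPKM in WT, with Cdh1 at 0.86 ± 0.31 FPKM in KO and 65.0 ± 1.69 FPKM in WT (SD, n = 6 each). The list was not of 1 direction: 3 of its 5 tested genes were lower in KO and 2 higher, Wt1 at 1.51 FPKM in KO and 0.117 FPKM in WT and Upk3b at 2.1 FPKM in KO and 0.448 FPKM in WT (means). The 7 myeloid markers summed to 8.4 to 14.84 FPKM in KO and 2.13 to 3.02 FPKM in WT, with Ptprc and Adgre1 below 0.05 FPKM throughout. Neuronal markers, nearly all of them Tubb3, summed to 38.86 to 55.79 FPKM in KO and 21.3 to 27.82 FPKM in WT, and striated muscle markers to 0.57 to 1.88 FPKM in KO and 2.15 to 3.53 FPKM in WT. The endothelial sum was 0.59 to 0.99 FPKM in KO and 0.13 to 0.3 FPKM in WT. Most of the KO sum was Kdr, at a mean of 0.623 FPKM in KO and 0.00333 FPKM in WT. Cdh5, Tie1, Emcn and Cldn5 stayed below 0.05 FPKM. The sums of smooth muscle, fibroblast, pericyte, glial and cycling-cell markers overlapped between the genotypes, but some single markers did not. Of 5 tested fibroblast markers, 2 were higher in KO, 1 was lower and 2 did not pass the test. Dpt was at 15.5 FPKM in KO and 0.0433 FPKM in WT, and Pdgfra at 10.4 FPKM in KO and 1.08 FPKM in WT (means). Col1a2 went the other way, at 173 FPKM in KO and 299 FPKM in WT (means). Of 4 tested pericyte markers, 3 were lower in KO. Among them were Cspg4 at 0.427 FPKM in KO and 2.31 FPKM in WT and Notch3 at 1.88 FPKM in KO and 5.26 FPKM in WT (means). The X-inactivation transcript Xist was at 0.31 to 3.53 FPKM in KO and 0.01 to 0.04 FPKM in WT, and 4 Y-linked genes (Ddx3y, Eif2s3y, Kdm5d and Uty) summed to 10.61 to 17.91 FPKM in KO and 26.91 to 30.77 FPKM in WT; these 5 genes were added after results were seen. The part of these differences in the results below was not tested. In bulk libraries, fewer cells of a type and less RNA per cell cannot be told apart. KO replicates 5 and 6 stood apart from KO replicates 1 to 4, with Spearman correlations of 0.935 to 0.949 to them against 0.991 to 0.993 among those 4, so results are also given for KO replicates 1 to 4 alone.

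The promoters of 4 members whose RNA was almost limited to 1 genotype are shown, since these genes carry the contrast described below. Each is the 250 bases before to 50 bases after the start site in RefSeq (GRCm38.p6), read 5′ to 3′ in the direction of the gene, with CG dinucleotides in capitals. Kcnf1 is the only one of the 4 that was higher in WT. Its window is chr12:17176839-17177138 on the minus strand, that of Kcnj8 is chr6:142571565-142571864 on the minus strand, that of Kcnj2 is chr11:111065914-111066213 on the plus strand, and that of Kcnk5 is chr14:20181733-20182032 on the minus strand.
Kcnf1: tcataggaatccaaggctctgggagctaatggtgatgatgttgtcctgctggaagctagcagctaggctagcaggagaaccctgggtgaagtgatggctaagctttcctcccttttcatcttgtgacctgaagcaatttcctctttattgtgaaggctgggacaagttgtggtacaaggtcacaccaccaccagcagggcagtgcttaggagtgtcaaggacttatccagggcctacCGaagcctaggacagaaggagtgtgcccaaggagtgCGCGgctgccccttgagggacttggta
Kcnj8: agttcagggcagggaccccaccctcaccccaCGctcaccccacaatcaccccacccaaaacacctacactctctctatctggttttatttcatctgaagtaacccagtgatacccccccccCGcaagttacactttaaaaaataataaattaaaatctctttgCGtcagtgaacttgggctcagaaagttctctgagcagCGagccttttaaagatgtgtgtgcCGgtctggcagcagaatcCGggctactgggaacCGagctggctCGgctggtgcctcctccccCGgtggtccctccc
Kcnj2: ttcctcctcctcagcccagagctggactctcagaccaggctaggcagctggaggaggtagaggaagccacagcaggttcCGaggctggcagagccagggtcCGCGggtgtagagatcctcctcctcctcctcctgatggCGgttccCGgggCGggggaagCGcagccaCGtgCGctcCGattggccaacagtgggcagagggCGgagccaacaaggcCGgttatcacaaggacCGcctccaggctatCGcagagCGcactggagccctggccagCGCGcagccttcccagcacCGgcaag
Kcnk5: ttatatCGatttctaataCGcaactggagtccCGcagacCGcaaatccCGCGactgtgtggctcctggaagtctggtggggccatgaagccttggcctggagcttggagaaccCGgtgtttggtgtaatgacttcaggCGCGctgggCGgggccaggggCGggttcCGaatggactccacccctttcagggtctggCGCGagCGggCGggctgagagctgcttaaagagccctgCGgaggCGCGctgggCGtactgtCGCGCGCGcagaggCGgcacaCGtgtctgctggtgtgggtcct
The 4 windows differ in CG content: there are 3 CG dinucleotides in the window of Kcnf1, 9 in that of Kcnj8, 18 in that of Kcnj2 and 26 in that of Kcnk5, against a median of 7 (quartiles 3 and 20) over all 32851 windows of the table. The table held windows for 55 of the 71 members, and for 17 of the 21 members with values described singly below; Kcnab3, Kcnd1, Kcnj14 and Kcnk3 had no entry. The palindrome CACGTG, chosen after the windows were read, stood in windows of Kcnab1, Kcne4, Kcnj2, Kcnk5 and Kcnn4, 5 of those 17 members against 8.09% of genes in the table, and in 6 of their 29 windows against 7.15% of all windows. GGGCGG, searched on both strands, stood in windows of 13 of the 17 members against 38.2% of genes, and in 15 of the 29 windows against 35.7% of all windows. TGANTCA stood in 2 of the 29 windows, of Kcnip3 and Kcnk2, against 7.81% of all windows. These matches are descriptions of the letters only.

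Of the 7 members that passed the level filter, 4 were higher in KO (Kcnd1, Kcnab1, Kcnk5 and Kcnj4), 2 were lower in KO (Kcnf1 and Kcnh2), and Kcnn4 did not pass the test. In the same limma fit of log2(FPKM + 1), 63.5% of the 11831 genes tested were called at an adjusted p of at most 0.05, 32.6% higher and 30.9% lower in KO. The count of 6 of 7 carries little on its own, because 4 members reached 1 FPKM only in KO libraries and 1 only in WT libraries, and such genes had to differ. Among all genes tested, 4.79% reached 1 FPKM in 1 genotype only. Kcnh2 and Kcnn4 reached it in both genotypes, and 61.7% of the 11264 genes that did so were called. With KO replicates 1 to 4 alone all 7 members were called, 4 higher and 3 lower in KO, as were 77.1% of the genes tested. The groups did not overlap for 6 of the 7, as for 46.4% of all genes tested.

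**Figure D1:**
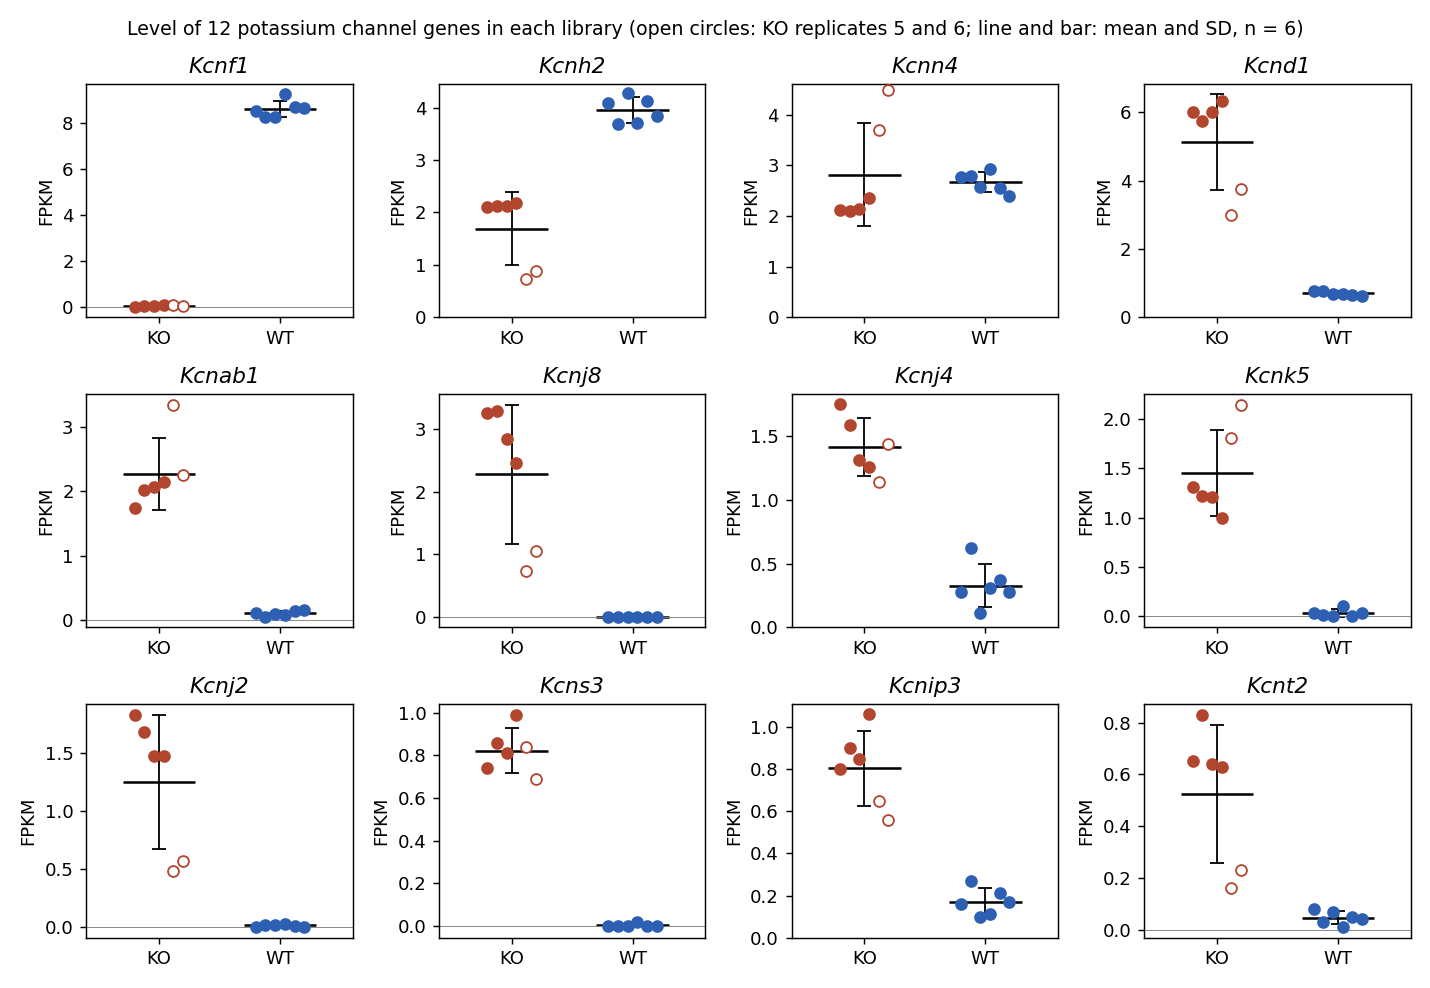
FPKM of 12 potassium channel genes in each library, KO left and WT right; filled circles are libraries, open circles KO replicates 5 and 6, lines and bars the mean and SD (n = 6 per genotype). Kcnf1 sits above 8 FPKM in all WT libraries and at most 0.08 in KO, Kcnj8 is listed at 0 in every WT library, and the genotypes overlap only for Kcnn4.

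Kcnf1, a silent voltage-gated subunit that forms no channel alone, was the most abundant member in every WT library and was nearly lost in KO. Its level was 0.03 to 0.08 FPKM in KO (median 0.065) and 8.27 to 9.27 FPKM in WT (median 8.6). All 6 KO libraries lay far below all 6 WT libraries, including KO replicates 5 and 6 at 0.08 and 0.07 FPKM. The mean was 0.0617 ± 0.0194 FPKM in KO and 8.63 ± 0.367 FPKM in WT (SD, n = 6 each), which is 139.9-fold lower in KO, and the difference on the log2(FPKM + 1) scale was -3.18 ± 0.044 (SE, limma adjusted p = 1.5e-14). Kcnf1 lies at chr12:17172100-17176888 on the minus strand (GRCm38), and no other annotated gene overlaps it.

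Kcnd1, Kcns3 and Kcna4 were the voltage-gated pore subunits that were higher in KO. Kcnd1, a pore of fast-inactivating A-type current, was at 2.99 to 6.33 FPKM in KO (median 5.88) and 0.63 to 0.77 FPKM in WT (median 0.675). It was the most abundant member in KO replicates 1 to 4, at 5.76 to 6.33 FPKM, and lower in KO replicates 5 and 6, at 2.99 and 3.75 FPKM, yet every KO library lay above every WT library. The mean was 5.14 ± 1.4 FPKM in KO and 0.695 ± 0.0568 FPKM in WT, a 7.40-fold difference (log2 1.82 ± 0.14 SE, limma adjusted p = 9.2e-08). Kcnd1 lies on the X chromosome, at chrX:7822289-7838280 on the plus strand, and the Xist and Y-linked levels given above differ between the genotypes; their part in this result was not tested. Kcns3, another silent subunit, was at 0.69 to 0.99 FPKM in KO (median 0.825), and in WT it was listed at 0 in 5 libraries and at 0.02 FPKM in replicate 4 (two-sided exact permutation p = 0.00216, the smallest that this design can give). Kcna4, another A-type pore, averaged 0.238 ± 0.0708 FPKM in KO and was at 0 to 0.01 FPKM in WT (exact permutation p = 0.00216).

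Kcnh2, the hERG pore known from cardiac repolarization, was lower in KO. It was at 0.72 to 2.18 FPKM in KO (median 2.12) and 3.68 to 4.28 FPKM in WT (median 3.96). The KO libraries formed a tight group of 4 at 2.11 to 2.18 FPKM with replicates 5 and 6 below it at 0.72 and 0.89 FPKM, and no KO library reached the lowest WT library. The mean was 1.69 ± 0.689 FPKM in KO and 3.96 ± 0.246 FPKM in WT, 2.34-fold lower in KO (log2 -0.92 ± 0.16 SE, limma adjusted p = 1.6e-04). With KO replicates 1 to 4 alone the log2 difference was -0.66 (adjusted p = 3.3e-08). Kcnh2 spans chr5:24319589-24351604 on the minus strand and overlaps the antisense gene Gm15589. Whether the authors counted by strand is not stated, so reads of the pair may be mixed. Kcne2, an auxiliary subunit known to bind the hERG pore, moved in the same direction at a far lower level: 0 to 0.03 FPKM in KO and 0.12 to 0.31 FPKM in WT (18.3-fold lower in KO, exact permutation p = 0.00216). Without KO replicate 2 or without KO replicate 6 the fold was 30.6, since the other 4 KO libraries are at 0.

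The auxiliary subunits as a class summed to 4.27 ± 0.482 FPKM in KO and 1.24 ± 0.198 FPKM in WT (SD, n = 6 each), and most of the KO sum was Kcnab1. Kcnab1, a cytoplasmic beta subunit that speeds inactivation of Kcna channels, was at 1.74 to 3.35 FPKM in KO (median 2.1) and 0.05 to 0.16 FPKM in WT (median 0.105). All KO libraries lay above all WT libraries, and KO replicate 5 was the highest. The mean was 2.26 ± 0.56 FPKM in KO and 0.105 ± 0.0414 FPKM in WT, a 21.6-fold difference (log2 1.55 ± 0.092 SE, limma adjusted p = 8.4e-09). The gene spans chr3:65109384-65378223 on the plus strand and overlaps AC113458.1, A330015K06Rik and A730090N16Rik, so reads could be shared.

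The other auxiliary subunits were below the filter. Kcnip3, a calcium-binding subunit of Kcnd channels, was at 0.56 to 1.06 FPKM in KO (median 0.825) and 0.1 to 0.27 FPKM in WT (median 0.165), a 4.73-fold difference with no overlap (exact permutation p = 0.00216). Kcne4, known to inhibit Kcnq and Kcna channels, was at 0.08 to 0.68 FPKM in KO (median 0.535) and 0 to 0.07 FPKM in WT (median 0.01), with KO replicates 5 and 6 the lowest KO libraries at 0.19 and 0.08 FPKM (exact permutation p = 0.00216). Kcnab2, a further beta subunit, averaged 0.318 ± 0.0763 FPKM in KO and 0.0417 ± 0.0299 FPKM in WT (exact permutation p = 0.00216), and it overlaps Nphp4 among other genes. Kcnab3 went the other way, at 0.333 ± 0.114 FPKM in KO and 0.627 ± 0.142 FPKM in WT, 1.88-fold lower in KO (exact permutation p = 0.00216), and it overlaps its antisense row Kcnab3os. The 3 beta subunit genes thus did not all go in 1 direction.

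The inward rectifiers summed to 2.61 to 7.24 FPKM in KO and 0.24 to 0.82 FPKM in WT, and Kcnj8, Kcnj4, Kcnj2 and Kcnj14 made up nearly all of the KO sum. Kcnj8, the pore of the vascular ATP-sensitive channel, was at 0.74 to 3.3 FPKM in KO (median 2.66) and was listed at 0 in all 6 WT libraries. KO replicates 5 and 6, at 0.74 and 1.05 FPKM, were below the other 4 at 2.47 to 3.3 FPKM. The mean in KO was 2.28 ± 1.12 FPKM (exact permutation p = 0.00216); no fold is given against a group listed at 0. Kcnj8 lies at chr6:142564837-142571614 on the minus strand. It reached 1 FPKM in 5 libraries and so missed the filter by 1 library. Its partners Abcc9 and Abcc8, the sulfonylurea receptor subunits, were far lower than the pore: Abcc9 was at 0.02 to 0.07 FPKM in KO and 0 to 0.01 FPKM in WT (exact permutation p = 0.00216), and Abcc8 at 0.01 to 0.08 FPKM in KO and 0 to 0.01 FPKM in WT (exact permutation p = 0.00649). Kcnj11, the other pore of ATP-sensitive channels, was at most 0.04 FPKM in KO and listed at 0 in WT.

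Kcnj2, the strong inward rectifier of small arteries, was at 0.48 to 1.82 FPKM in KO (median 1.47) and 0 to 0.03 FPKM in WT (median 0.015). The groups did not overlap, and KO replicates 5 and 6 were again the lowest KO libraries, at 0.48 and 0.57 FPKM. The mean was 1.25 ± 0.577 FPKM in KO and 0.0133 ± 0.0121 FPKM in WT (93.6-fold, exact permutation p = 0.00216). Kcnj4, a related strong rectifier, passed the filter through KO libraries: it was at 1.14 to 1.75 FPKM in KO (median 1.38) and 0.11 to 0.62 FPKM in WT (median 0.295). Its KO replicates 5 and 6 lay within or close to the range of the other 4, at 1.14 and 1.44 FPKM. The mean was 1.42 ± 0.225 FPKM in KO and 0.328 ± 0.167 FPKM in WT, a 4.31-fold difference (log2 0.87 ± 0.089 SE, limma adjusted p = 1.7e-06). Kcnj14, a further member of the strong rectifier family, averaged 0.213 ± 0.0408 FPKM in KO and 0.0333 ± 0.0393 FPKM in WT (6.40-fold, exact permutation p = 0.00216), and the fold was 10.7 without WT replicate 2.

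**Figure D2:**
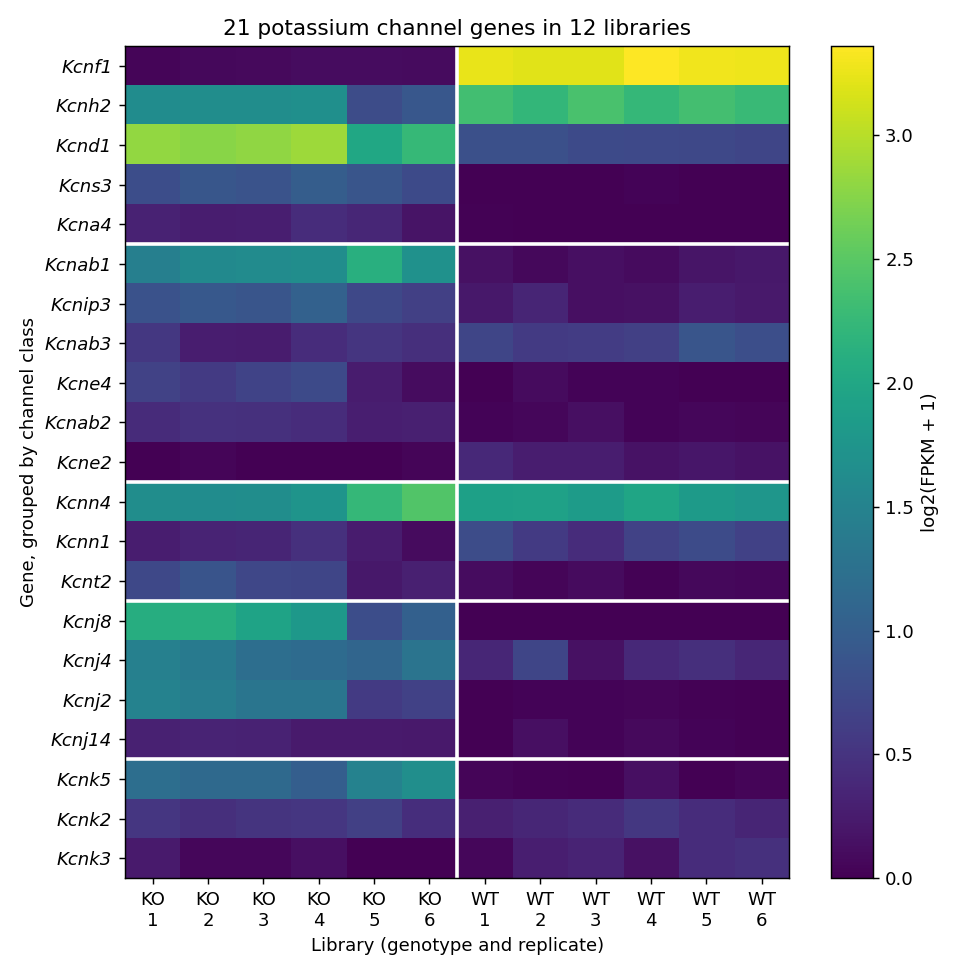
Level of the 21 members tested, as log2(FPKM + 1) by colour, with genes in rows grouped by channel class and libraries in columns, KO 1 to 6 left and WT 1 to 6 right. Kcnf1 is brightest in the 6 WT columns, Kcnd1 in KO 1 to 4, and columns KO 5 and KO 6 are brighter than KO 1 to 4 for Kcnab1, Kcnk5 and Kcnn4 and darker for Kcnd1, Kcnh2, Kcnj2 and Kcnj8.

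The K2P channels, which carry background potassium current, did not all go in 1 direction. Kcnk5, known for sensing alkaline pH, was at 1 to 2.15 FPKM in KO (median 1.26) and 0 to 0.1 FPKM in WT (median 0.02). All 6 KO libraries were above all 6 WT libraries, with KO replicates 5 and 6 the highest at 1.81 and 2.15 FPKM. The mean was 1.45 ± 0.436 FPKM in KO and 0.0283 ± 0.0376 FPKM in WT, a 51.2-fold difference (log2 1.24 ± 0.098 SE, limma adjusted p = 1.5e-07). The fold rests on a WT mean near 0 and was 103.6 without WT replicate 4. Kcnk2, a channel opened by stretch, averaged 0.432 ± 0.0717 FPKM in KO and 0.32 ± 0.081 FPKM in WT (1.35-fold, exact permutation p = 0.0303) with overlapping groups. Kcnk3, an acid-sensitive channel known from pulmonary artery muscle, averaged 0.06 ± 0.0693 FPKM in KO and 0.227 ± 0.133 FPKM in WT, 3.78-fold lower in KO with overlapping groups (exact permutation p = 0.026), and 6.30-fold lower without KO replicate 1. Both calls were lost without certain single libraries, as listed in the last section. They were also lost with KO replicates 1 to 4 alone, a comparison of 4 with 6 libraries. There the exact permutation p was 0.0619 for Kcnk2 and 0.11 for Kcnk3.

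Among calcium- and sodium-activated channels, Kcnn4 was the 1 member above 1 FPKM in all 12 libraries. It was at 2.1 to 4.48 FPKM in KO (median 2.25) and 2.39 to 2.93 FPKM in WT (median 2.67). KO replicates 1 to 4, at 2.1 to 2.35 FPKM, all lay below the WT libraries, and KO replicates 5 and 6, at 3.7 and 4.48 FPKM, all lay above them. Over all libraries the log2 difference was 0.019 ± 0.14 (SE, limma adjusted p = 0.92), which does not show that the genotypes were alike, and with KO replicates 1 to 4 alone it was -0.21 (adjusted p = 0.0021). The summed level of 5 cycling-cell markers was 81.3 to 89.0 FPKM in KO replicates 1 to 4, 188.8 and 256.8 FPKM in KO replicates 5 and 6, and 97.7 to 137 FPKM in WT; the part of cell division in the Kcnn4 levels was not tested.

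Kcnn1, a small-conductance channel, averaged 0.23 ± 0.103 FPKM in KO and 0.57 ± 0.141 FPKM in WT, 2.48-fold lower in KO with overlapping groups (exact permutation p = 0.00433). Kcnt2, a sodium-activated channel, was at 0.16 to 0.83 FPKM in KO (median 0.635) and 0.01 to 0.08 FPKM in WT (median 0.045), an 11.2-fold difference with no overlap (exact permutation p = 0.00216). The large-conductance channel by which contractile arterial muscle is best known was near 0: Kcnma1 was at most 0.06 FPKM and Kcnmb1 at most 0.02 FPKM in KO, and both were listed at 0 in WT. Kcna5, Kcna2, Kcnq1 and Kcnq5, other channels of arterial muscle, were at most 0.08 FPKM in any library. Of the 13 arterial channels looked up by name that had a row, 7 stayed below 0.1 FPKM everywhere.

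The 64 members below the filter hold most of the family. Of these, 14 had at least 0.2 FPKM in at least 3 libraries and were tested singly, and all 14 had an unadjusted exact permutation p of at most 0.05: 10 higher and 4 lower in KO. By the same rule 46.9% of 4797 genes had such a p, 27.6% higher and 19.3% lower in KO, and most of the 14 reached this level mainly in the genotype where they were high, so the rule favours genes that differ. Of the 14, 11 had no overlap between genotypes, as did 26.1% of those genes. With KO replicates 1 to 4 alone, 12 of the 14 kept an exact permutation p of at most 0.05, as had 47.1% of the 4797 genes. With a filter of at least 0.5 FPKM in at least 6 libraries, 9 of 10 members tested were called. Of those 9, 7 were higher and 2 lower in KO, against 62.2% of 13214 genes called, 32.0% higher in KO. The members that this filter added, Kcnj8, Kcns3 and Kcnip3, reached 0.5 FPKM in KO libraries only, so they had to differ. In a limma fit with no filter, 26 members of the 69 above 0 in some library were called, 18 higher and 8 lower in KO, against 34.5% of 29060 rows, and 13 of the 14 were among them. The other 50 never exceeded 0.38 FPKM, and Kcnq3 and Kcnt1 were listed at 0 in every library. At a mean of at least 0.5 FPKM, 11 members were expressed in KO and 6 in WT, with 3 in both. Over all rows 13221 had such a mean in KO. The WT and shared counts were not made over all rows, so the member counts do not set the family apart from other genes.

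**Figure D3:**
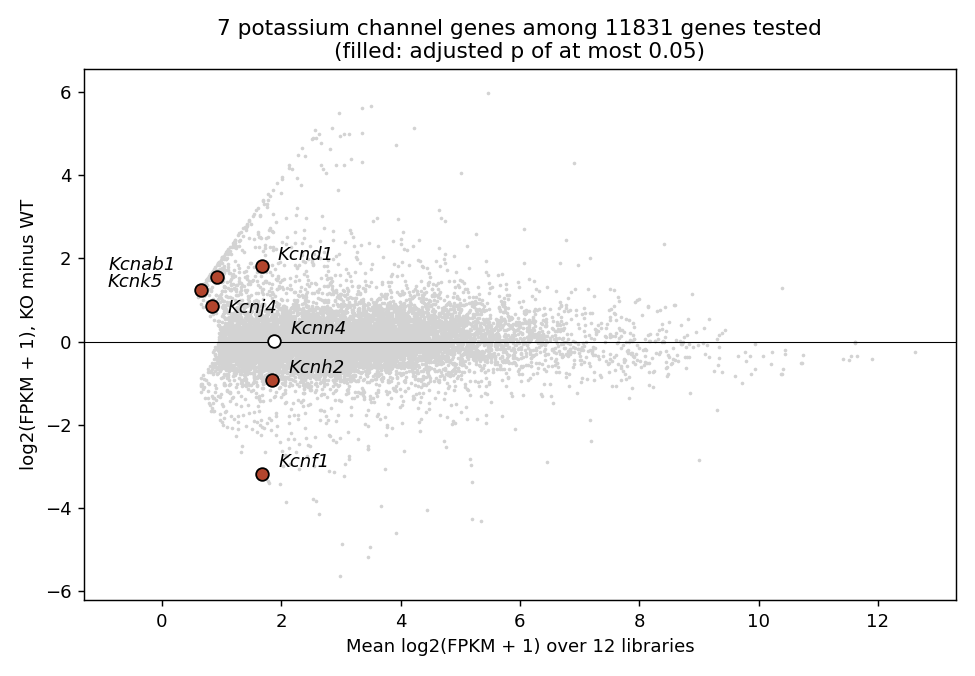
Difference on the log2(FPKM + 1) scale, KO minus WT, against the mean over 12 libraries for all 11831 genes tested (grey), with the 7 potassium channel genes marked (filled: limma adjusted p of at most 0.05). Kcnf1 lies at -3.18 and Kcnd1 at 1.82, and the 7 lie at the low end of the level axis.

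The channel RNA was made up of different members in the genotypes. The summed FPKM of the 71 members was 24.2 ± 3.28 in KO and 19.6 ± 0.624 in WT (SD, n = 6 each; exact permutation p = 0.0108), a difference of 4.68 FPKM, with KO replicates 5 and 6 at 19.57 and 20.57 FPKM within or just above the WT range of 18.82 to 20.42 FPKM. Without Kcnf1 the sums were 24.2 ± 3.29 FPKM in KO and 10.9 ± 0.352 FPKM in WT (exact permutation p = 0.00216). Kcnf1 was 0.264% of the sum in KO and 44.1% in WT, and Kcnd1 was 20.8% in KO and 3.56% in WT. Kcnj8 was 9.0% in KO and 0% in WT. By class, voltage-gated pore subunits made up 35.1% of the sum in KO and 69.8% in WT, and inward rectifiers 21.8% in KO and 2.23% in WT. The K2P channels made up 8.94% in KO and 3.42% in WT, while calcium- and sodium-activated channels made up 12.1 to 13.8% in KO replicates 1 to 4, 21.5% and 23.8% in KO replicates 5 and 6, and 16.4 to 18.9% in WT, so that no KO library lay in the WT range.

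**Figure D4:**
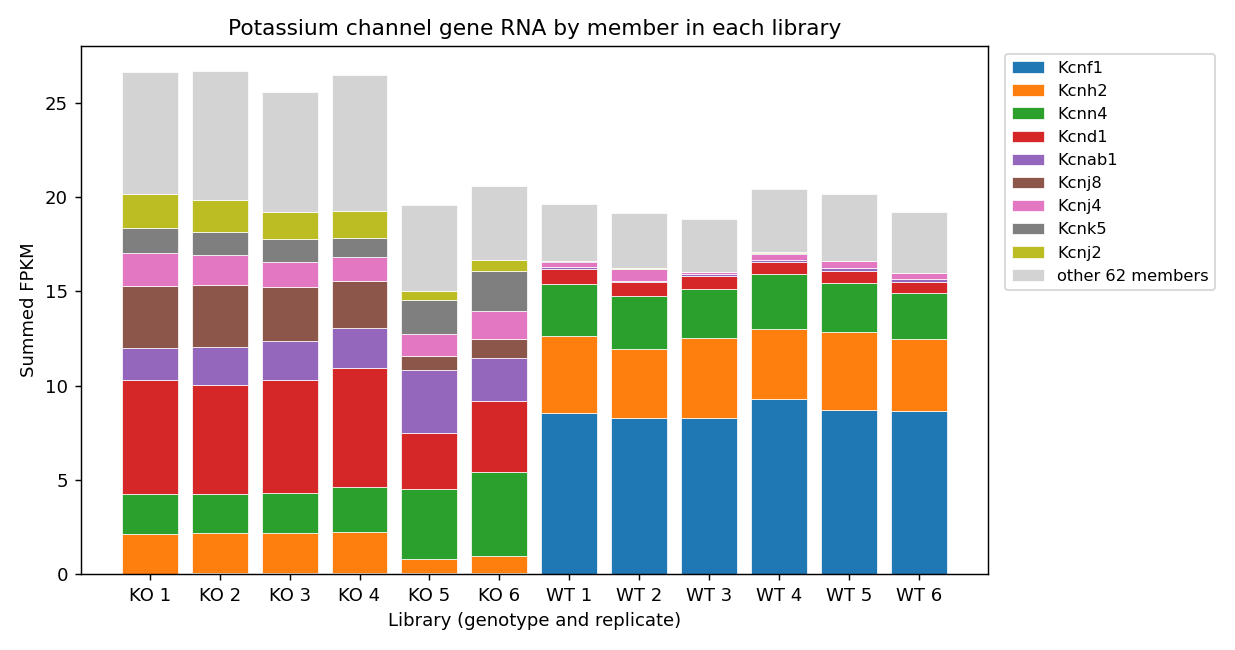
Summed FPKM of the 71 members in each library, KO 1 to 6 left and WT 1 to 6 right, stacked by member. Kcnf1 fills 43.3 to 45.4% of each WT bar and is barely visible in KO, and the bars of KO 5 and KO 6 end at 19.57 and 20.57 FPKM, below the other KO bars.

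The 6 KO libraries did not share 1 channel profile. Of the 11 members with a KO mean of at least 0.5 FPKM, 6 were lower in both KO replicates 5 and 6 than in any of KO replicates 1 to 4 (Kcnd1, Kcnh2, Kcnip3, Kcnj2, Kcnj8 and Kcnt2), 3 were higher (Kcnab1, Kcnk5 and Kcnn4), and Kcnj4 and Kcns3 overlapped. Among all 13221 genes of that level, 32.9% were lower and 23.4% higher in both. The most abundant member was Kcnd1 in KO replicates 1 to 4 and Kcnn4 in KO replicates 5 and 6.

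Genes that act with these channels but carry other names were counted from lists. Of 28 partner proteins, 16 were tested, 4 were higher in KO, 5 lower and 7 not called, a share called near the 63.5% of all genes tested, with a median log2 difference of -0.012 against 0.0087 over all genes tested. Cav1, the caveolar scaffold with which several channels associate, was at 52.5 ± 8.73 FPKM in KO and 126 ± 3.67 FPKM in WT (log2 -1.27, limma adjusted p = 2.3e-07). Nedd4l, a ubiquitin ligase of ion channels, was at 3.13 ± 0.147 FPKM in KO and 1.27 ± 0.0572 FPKM in WT (log2 0.86, limma adjusted p = 2.2e-09). Calm3, 1 of the calmodulin genes, which encode the calcium sensor bound to Kcnn channels, was at 84.6 ± 2.28 FPKM in KO and 52.0 ± 2.71 FPKM in WT (log2 0.69, limma adjusted p = 3.0e-08).

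Of 25 potassium pumps and cotransporters, 12 were tested, of which 8 were higher and 3 lower in KO, with a median log2 difference of 0.38; of all genes tested 32.6% were higher and 30.9% lower. Slc12a2, the sodium-potassium-chloride cotransporter that brings potassium into the cell, was at 3.57 ± 0.947 FPKM in KO and 26.0 ± 1.52 FPKM in WT (log2 -2.58, limma adjusted p = 1.9e-10), and its direction was against the list median. Slc9a7, an exchanger of organelle membranes, was at 2.56 ± 0.842 FPKM in KO and 0.205 ± 0.0644 FPKM in WT (log2 1.53, limma adjusted p = 5.9e-07), and Slc12a9 at 3.40 ± 0.359 FPKM in KO and 2.14 ± 0.187 FPKM in WT (log2 0.49, limma adjusted p = 2.1e-05). Of 9 other potassium-conducting channels, 5 were tested, 1 was higher and 2 lower in KO. These were the pacemaker channel Hcn2, at 2.05 ± 0.419 FPKM in KO and 1.32 ± 0.174 FPKM in WT (log2 0.38, limma adjusted p = 0.0035), the reticulum channel Tmem38a at 2.91 ± 0.304 FPKM in KO and 3.89 ± 0.152 FPKM in WT (log2 -0.32, limma adjusted p = 2.4e-04), and the lysosomal channel Tmem175 at 1.83 ± 0.868 FPKM in KO and 3.18 ± 0.287 FPKM in WT (log2 -0.63, limma adjusted p = 0.01).

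In the authors' deposited table, 27 of the 71 members were marked significant, 21 higher in KO and 6 higher in WT, against 15.0% of all rows. Only 6 of those 27 passed the level filter used here, so most rest on levels below 1 FPKM.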

How the data were processed

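Messenger RNA of 12 libraries was sequenced in pairs after strand marking with dUTP, per the labels' protocols. Tools listed in the submitters' processing notes are StringTie 1.3.4d, HISAT2 2.0.4, cutadapt 1.9, edgeR and DESeq2, beside the build mm9, with no role for each. The deposited FPKM values were made by the authors and have 2 decimals; no counts were used here, so depth is unknown. The authors' deposited table also holds p-values and q-values, a WT over KO ratio and the log2 of that ratio, from a test that is not stated; only its marks of significance are quoted. Low values may be few fragments, and zeros are given as listed at 0.

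GENCODE M21 held 29384 of the gene IDs and all 71 members; coordinates are those of GRCm38, not of mm9. The 11831 genes that reached 1 FPKM in 6 or more of the 12 libraries were compared on log2(FPKM + 1) with limma 3.58.1 (R 4.3.3), with a variance trend, two-sided, and Benjamini-Hochberg adjustment over all of them; differences on that scale are smaller than the true log2 ratio for low genes. The code was tested on simulated data. Members below the filter with at least 0.2 FPKM in at least 3 libraries, and sums, had a two-sided exact permutation test over every assignment of the libraries to genotypes, unadjusted. Named were all members so tested, arterial channels listed by name, Abcc8, Abcc9 and up to 3 called genes of each list with the smallest p. Members and lists were chosen with earlier results of these data known. Alternatives covered pseudocount, filter, scaling, trend, weights, rank test, replicate block and libraries left out.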

Additional observations from a re-analysis of the deposited data

Results flagged for a closer look

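In groups of 6 libraries, 1 library stood far from the other 5 for 6 of the 41 groups of member values examined, where chance flags about 1 in 20 groups of continuous values; that rate does not hold for values rounded to 2 decimals and tied at 0, as for Kcns3 and Kcna4 in WT. Kcnab1 in KO replicate 5 was at 3.35 FPKM, against 1.74 to 2.26 FPKM in the other KO libraries; the other 5 flags are all low WT values. Kcnk5 in WT replicate 4 was at 0.1 FPKM, against 0 to 0.03 FPKM in the other WT libraries. Kcnab2 in WT replicate 3 was at 0.1 FPKM, against 0.02 to 0.04 FPKM in the others. Kcne4 in WT replicate 2 was at 0.07 FPKM, against 0 to 0.02 FPKM in the others. Kcns3 in WT replicate 4 was at 0.02 FPKM and Kcna4 in WT replicate 1 was at 0.01 FPKM, with the other WT libraries listed at 0.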

How the results depend on the processing

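Under the 25 other fit settings, the 6 called members that passed the filter kept their direction and their call wherever they were tested. This says little for most of them, since 4 reached 1 FPKM only in KO libraries and 1 only in WT libraries. For those members the filter had already set the genotypes apart. Kcnh2 was the only called member that reached 1 FPKM in both genotypes. Kcnn4, which was not called in the main fit, changed sign in 6 settings. Its log2 difference was -0.0057 with quantile normalization, -0.20 with weights per library and -0.21 with KO replicates 1 to 4 only. It was -0.05 without KO replicate 5, -0.094 without KO replicate 6 and -0.004 without WT replicate 6. With 1 library left out it ranged from -0.094 to 0.071. With weights per library, and with KO replicates 1 to 4 only, all 7 members were called, 3 of them lower in KO, Kcnn4 included. With no filter on low values, 26 members were called, 18 higher and 8 lower in KO, of 69 tested, against 34.5% of 29060 rows. With at least 0.5 FPKM in at least 6 libraries, 9 of 10 members tested were called, against 62.2% of genes. Of those 9, 7 were higher and 2 lower in KO. The added members Kcnj8, Kcns3 and Kcnip3 reached 0.5 FPKM in KO libraries only, so they had to differ. Of the 14 members below the filter, only Kcnk2 and Kcnk3 lost their call in any alternative. The exact permutation p of Kcnk3 was 0.0519 without KO replicate 5 and 0.0519 without KO replicate 6, and that of Kcnk2 was 0.0606 without KO replicate 5, 0.0649, 0.0628, 0.0519 and 0.0649 without WT replicates 1, 2, 3 and 6, and its limma adjusted p with no filter was 0.077; the cause was not tested. Same-numbered KO and WT libraries had correlations of deviations from the group means of -0.27 to -0.06. Of the 6 KO libraries, 0 correlated best with the WT library of their own number. The KO deviations also hold the split of KO replicates 5 and 6 from 1 to 4, so these values cannot show whether the numbers pair the libraries. With the replicate number as a block, 6 members were called, 4 higher and 2 lower in KO. Unknown depth limits every value below about 1 FPKM.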
